A study of Rattus norvegicus with 12 samples.

Results

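Pomc and 9 genes that specify or control the pituitary cells making it were followed in the pituitary of Wistar rat fetuses at gestational day 18, on 12 arrays of 1 colour. The 10 genes were picked by name, with earlier results of these data known. They include the hormone precursor gene Pomc and the transcription factor genes Tbx19, Neurod1, Insm1 and Pax7. The others are the receptor genes Crhr1 and Avpr1b, the binding protein gene Crhbp, and the nuclear receptor genes Nr3c1 and Nr4a1. The set is 10 of the 26311 genes named on the array, and 13 probes carry the names of its genes. The design has 4 groups of 3 arrays, namely male controls, males whose dams received the dioxin TCDD, female controls, and females exposed in the same way. The 4 groups share strain, tissue and day. Dose, vehicle, day of dosing and litter are not given in the sources used here, nor whether a sample holds 1 gland or several. The p-values therefore measure only the spread between these samples, and they would be too small if some of the fetuses were litter mates.

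The series title asks how dioxin given to the mother affects pituitary mRNAs in the fetus. Among the 9 genes that could be tested, 0 were called at an adjusted p below 0.05 in limma in males, in females or over both sexes. Crhbp stood furthest below the controls (log2 difference -0.90 over both sexes), and it was the only one of the 9 for which all exposed arrays of each sex lay below all controls of that sex. Pomc itself differed by -0.31 (standard error 0.17).

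Proopiomelanocortin is a prohormone made by 2 kinds of pituitary cell. Corticotropes of the anterior lobe cut it into adrenocorticotropin (ACTH), which drives the adrenal gland to make glucocorticoids, and melanotropes of the intermediate lobe cut it further into melanocyte-stimulating hormone and beta-endorphin. The T-box factor encoded by Tbx19 is needed for both lineages, the basic helix-loop-helix factor encoded by Neurod1 acts in early corticotropes, and the factor encoded by Pax7 turns POMC cells towards the melanotrope fate. Hypothalamic corticotropin-releasing hormone (CRH) and vasopressin stimulate corticotropes, and glucocorticoids restrain them. TCDD binds the aryl hydrocarbon receptor, a transcription factor whose partner-bound form recognises DNA with the core letters GCGTG.

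The values below rest on 60-base probes that each detect a stretch of 1 transcript. The probes of Pomc and of Crhbp, the member furthest below its controls over both sexes, are shown here. The capitals in the Pomc probe mark the stop codon, which starts at base 54, so that this probe covers the last 17 sense codons, at the beta-endorphin end of the prohormone. Their coordinates, taken from the deposited files, are those of the rn4 build.
Pomc, chr6:26937625-26937684, plus strand: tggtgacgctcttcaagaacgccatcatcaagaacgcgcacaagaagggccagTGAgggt
Crhbp, chr2:25802015-25802074, minus strand: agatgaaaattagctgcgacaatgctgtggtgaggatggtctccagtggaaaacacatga

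Because the exposure acts through a DNA-binding receptor, the promoters of Pomc and Crhbp are shown as RefSeq gives them on the GRCr8 build, as the 250 bases before the transcription start. Capitals mark matches on either strand to GCGTG, the core of the aryl hydrocarbon receptor site, and to CANNTG, the E-box bound by basic helix-loop-helix factors such as the one Neurod1 encodes. The 2 motifs do not overlap each other here.
Pomc, chr6:32659103-32659352, plus strand: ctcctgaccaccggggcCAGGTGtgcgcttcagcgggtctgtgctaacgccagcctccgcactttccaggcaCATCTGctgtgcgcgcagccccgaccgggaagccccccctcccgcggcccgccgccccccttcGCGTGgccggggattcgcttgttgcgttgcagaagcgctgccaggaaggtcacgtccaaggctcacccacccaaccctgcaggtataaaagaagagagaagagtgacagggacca
Crhbp, chr2:28439447-28439696, minus strand: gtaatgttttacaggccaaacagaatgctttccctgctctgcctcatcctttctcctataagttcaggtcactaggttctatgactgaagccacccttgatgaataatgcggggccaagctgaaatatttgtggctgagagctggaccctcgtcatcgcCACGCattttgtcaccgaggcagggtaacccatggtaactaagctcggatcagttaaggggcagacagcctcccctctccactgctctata

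The Pomc promoter holds 1 GCGTG match, which begins at base -115 counted from the start, and E-box matches at -233 and -178. The Crhbp promoter holds 1 GCGTG match, at -91 on the opposite strand. Over the full 300-base windows, which run 50 bases past the start, GCGTG occurs in the promoters of 6 of the 9 genes with an entry (Pomc, Crhbp, Neurod1, Pax7, Nr3c1 and Nr4a1) and in 29.7% of 33469 promoters of the same length. CANNTG occurs in 4 of the 9 and in 72.1% of all, and AAAGGTCA, the extended half-site of Nr4a1 and its relatives, in 0 of the 9 and in 1.43% of all. A gene was counted if any of its windows matched, and Crhr1 and Nr3c1 have more than 1 window. The percentages count each window by itself, so they are not a like-for-like background. Insm1 has no entry in the promoter table. These matches describe the letters of the windows, and no binding was measured.

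A gene's level below is the log2 of its background-corrected spot intensity minus the 75th percentile of its array, so that 0 is the level of a bright probe and a step of 1 is a doubling. Probes differ in how well they bind, so levels are compared between arrays and not between genes. Ahrr and Cyp1a1, classical targets of the aryl hydrocarbon receptor, were higher in exposed fetuses by 5.92 and 5.61 over both sexes in the same limma fit (adjusted p = 5.12e-06 and 1.07e-05), with no overlap between exposed and control arrays. The 6 exposed arrays thus carry the labelled response. Anterior pituitary markers were present on every array, with 13 of 14 measured (Hesx1 was not), Pitx1 between 0.85 and 2.31, and a mean over the 13 from -2.04 to -0.36. Between 75.1% and 78.4% of spots on an array lay well above background.

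Markers of sensory ganglion neurons, cells that are no part of the pituitary, split the arrays, although some of these genes, such as Gal, are also made by pituitary cells. The mean of 24 measured markers of 25 (Prrxl1 was not) ranged from -0.14 to 1.30 on 6 arrays, while the remaining 6 had means from -3.66 to -3.16. The signal was present on 4 exposed arrays (male TCDD 1 and 2, female TCDD 1 and 3) and on 2 control arrays (male control 2 and female control 2). Its defining genes Pou4f1, Isl2 and Tlx3 reached -2.13, 1.07 and 1.84 on male TCDD 1, against -8.32, -5.20 and -2.65 on male TCDD 3. The peripheral glia marker Sox10 was also highest on male TCDD 1, at 1.08 (9 of 10 measured, mean from -2.54 to -1.19 in controls and -2.32 to -0.16 in exposed). Male TCDD 1 was also the only array on which Avp, the vasopressin gene of hypothalamic neurons, reached -1.85, against -6.23 to -5.57 elsewhere, although Oxt and Sim1 were not raised there, and the mean of the 11 measured posterior lobe and hypothalamus markers (of 13) spanned -3.20 to -2.87 in controls and -3.22 to -2.47 in exposed. Skeletal muscle markers (9 of 10 measured, Myod1, Myog and Ckm first) had means from -4.35 to -3.20 in controls and -4.68 to -3.85 in exposed, and blood markers (6 of 8, Hbb, Alas2 and Ahsp first) from 0.62 to 1.36 and 0.29 to 1.29. Arrays were run on 3 slides: slide 1 held the 3 male controls with male TCDD 1, slide 2 male TCDD 2 and 3 with female control 1 and 2, and slide 3 female control 3 with the 3 exposed females.

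**Figure D1:**
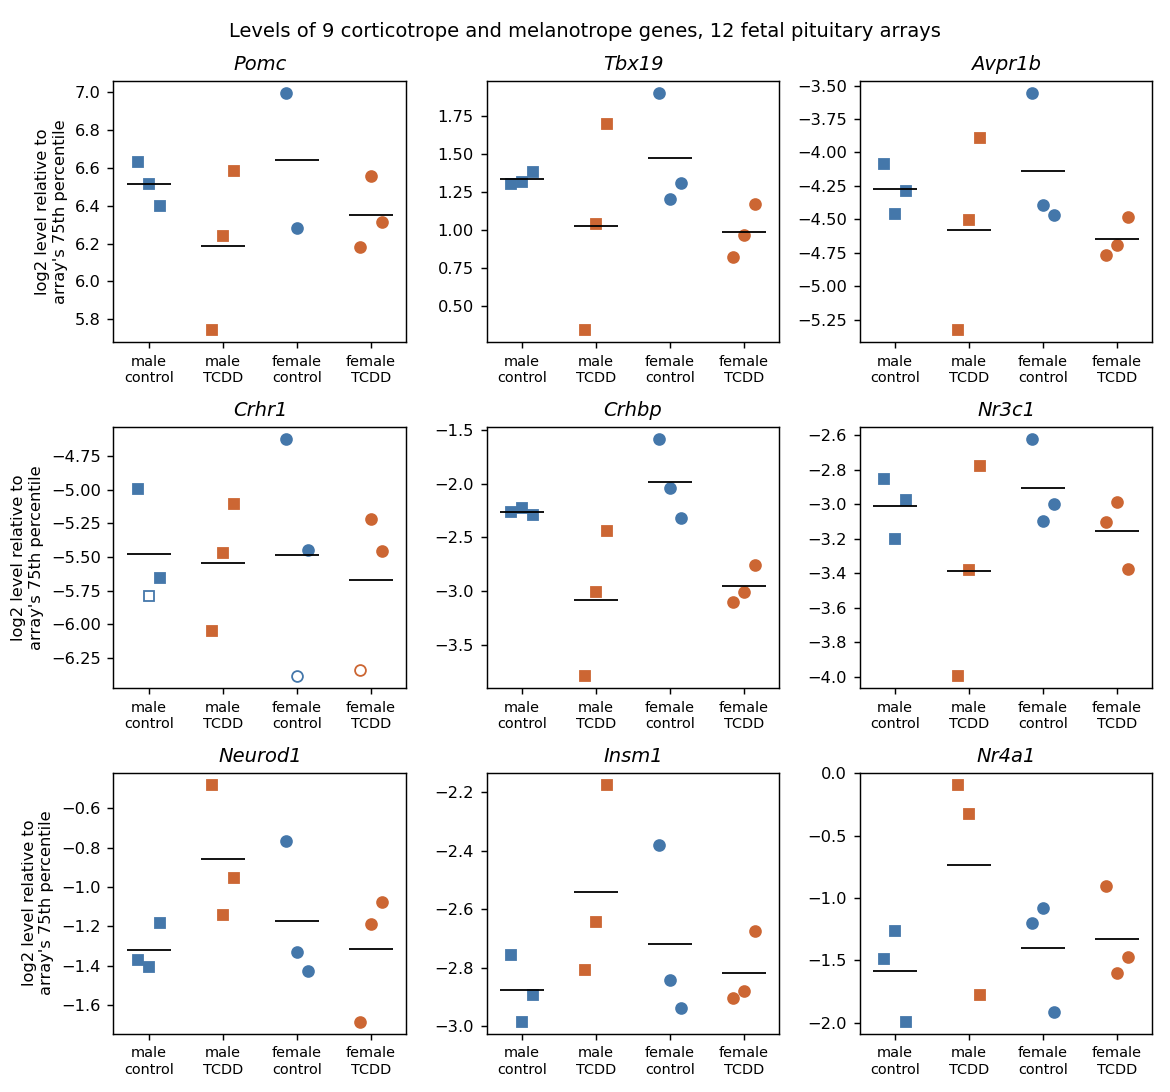
Level of each of the 9 tested genes on each array (log2 scale, with the 75th percentile of the array at 0 and a separate vertical scale for each gene), with arrays grouped by sex and exposure and the group mean as a bar. Crhbp separates exposed from control arrays in both sexes, while Pomc overlaps in both and has no value for female control 3.

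Pomc was bright on every array, with unscaled intensities between 60221 and 124060, and no spot was saturated. Its level was 6.63, 6.51 and 6.40 in the male controls, 5.74, 6.24 and 6.59 in the exposed males, 7.00 and 6.28 in female controls 1 and 2, and 6.18, 6.56 and 6.31 in the exposed females. The spot of female control 3 was flagged as an outlier and left out, and the fit of Pomc therefore rests on 11 arrays. Male TCDD 1 was the lowest and female control 1 the highest, and the groups overlapped in both sexes. In limma the difference was -0.33 in males (standard error 0.23, adjusted p = 0.539), -0.29 in females (standard error 0.26, adjusted p = 1.00) and -0.31 over both (95% interval -0.70 to 0.08, adjusted p = 0.670). As a ratio the value over both sexes is 0.808, with an interval from 0.616 to 1.06, which includes no change. In whole pituitaries, fewer cells of a type and less RNA per cell cannot be told apart.

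Single arrays set the size of the Pomc difference. Over both sexes it was -0.13 without female control 1 and -0.49 without female control 2, and -0.20 without male TCDD 1. In females it was 0.067 without female control 1. With the flagged spot kept (level 6.31) it was -0.18 in females and -0.25 over both sexes. The ganglion signal moved with it: Pomc lay between 5.74 and 6.51 on the 6 arrays with that signal and between 6.40 and 7.00 on the other 5. With that marker mean as a covariate the difference over both sexes was -0.19, and in males without those 6 arrays it was 0.069. Here and below, leaving out those 6 arrays leaves male TCDD 3 as the only exposed male and female TCDD 2 as the only exposed female.

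The count of 0 called members stands against few calls among all 19381 genes. The limma fit called 0.0103% of genes in males (2 genes, both higher), 0.0103% in females (2, both higher) and 0.0206% over both sexes (4, all higher). At an unadjusted p below 0.05, 1 of the 9 members (Crhbp) passed in each of these 3 comparisons, against 9.34%, 2.68% and 6.46% of all genes. The median difference of the 9 was -0.30 in males, -0.25 in females and -0.31 over both, and that of all genes was -0.01, -0.04 and -0.02. Over both sexes 6 of the 9 lay below 0 and 3 above, beside 10810 below and 8571 above among all 19381 genes.

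**Figure D2:**
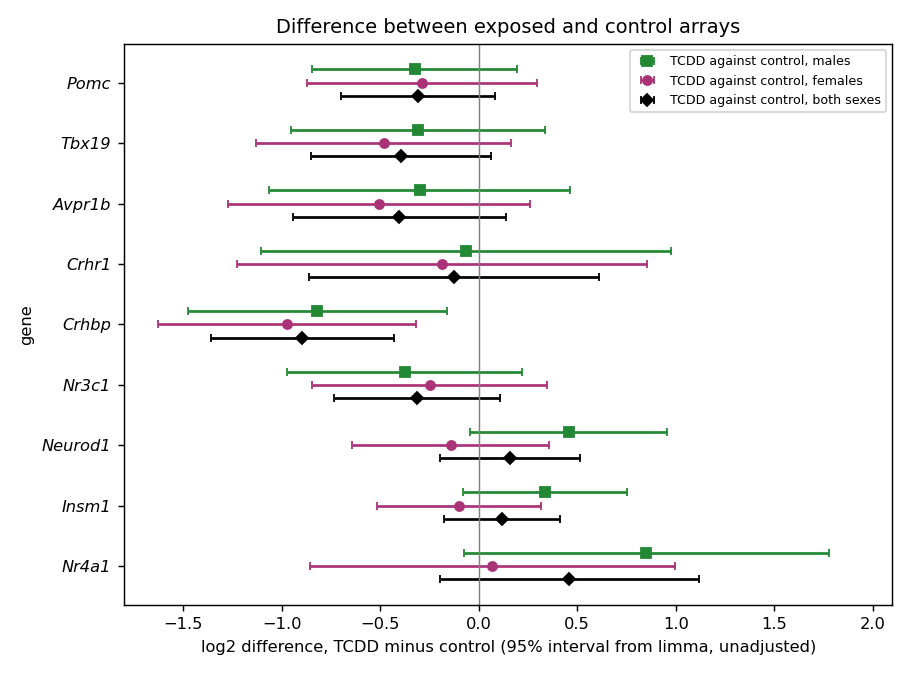
Difference between exposed and control arrays (log2, TCDD minus control) for each of the 9 tested genes in males, females and over both sexes, with 95% intervals from limma that are not adjusted for the number of genes. The Crhbp intervals lie below 0 in all 3 comparisons, and those of the other 8 genes include 0.

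Tbx19, the lineage factor of POMC cells, was, like Pomc, lowest on male TCDD 1 and highest on female control 1. The level of its brighter probe, at chr13:80890850-80890909 (minus strand), was 1.30, 1.31 and 1.38 in the male controls, 0.34, 1.04 and 1.69 in the exposed males, 1.90, 1.20 and 1.31 in the female controls, and 0.82, 0.97 and 1.17 in the exposed females. All but 1 of the exposed arrays, male TCDD 3, lay below every control, so 5 of 6 did. The exposed females did not overlap the female controls, a state found in the lower direction for 5.51% of all genes in females. The difference was -0.31 in males, -0.48 in females and -0.39 over both (standard error 0.21, adjusted p = 0.670 in limma). It turned to 0.035 in males without male TCDD 1. Without the 6 arrays with ganglion signal it was 0.35 in males, from male TCDD 3 alone among the exposed. In females it stayed below 0 without each array in turn (-0.62 to -0.27). A dimmer probe, which starts 1336 bases earlier in the transcript, gave -0.37 over both sexes, the same direction and nearly the same size. On that probe, however, the females overlapped, with female TCDD 3 at -3.65 and female control 3 at -3.76. The lack of overlap in females thus holds for the brighter probe only.

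The other lineage factors did not share that pattern. Neurod1, read at chr3:62225107-62225166 (minus strand), stood at -1.37, -1.40 and -1.18 in the male controls, -0.48, -1.14 and -0.96 in the exposed males, -0.77, -1.33 and -1.42 in the female controls, and -1.68, -1.19 and -1.07 in the exposed females. All 3 exposed males lay above the male controls, as for 8.4% of all genes in males, and the females overlapped. In either direction, 14.4% of genes did not overlap in males and 6.97% in females, where 1.46% lay higher in all exposed arrays. The difference was 0.46 in males (adjusted p = 0.506), -0.14 in females and 0.16 over both (adjusted p = 0.711). Its difference between the sexes, 0.60 with a standard error of 0.32, did not pass (adjusted p = 0.883, unadjusted p = 0.0891). In females the sign rested on single arrays, with 0.062 without female control 1 and 0.043 without female TCDD 1.

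Insm1 encodes a zinc finger factor of endocrine differentiation, and its probe lies at chr3:134847158-134847217 (plus strand). The levels were -2.76, -2.98 and -2.89 in the male controls, -2.81, -2.64 and -2.17 in the exposed males, -2.38, -2.84 and -2.94 in the female controls, and -2.90, -2.88 and -2.67 in the exposed females. Both sexes overlapped, and male TCDD 3 was the highest. The difference was 0.34 in males, -0.10 in females (0.071 without female control 1) and 0.12 over both (95% interval -0.18 to 0.41, adjusted p = 0.733). Insm1 varied least within groups of the 9 genes, with a standard deviation of 0.24, where Crhr1 varied most with 0.62 and the median gene had 0.23.

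Pax7, the melanotrope determinant, was not well above background on any of the 12 arrays. Its probe, at chr5:158547811-158547870 (minus strand), read between -9.02 and -7.20, so the arrays give no direction for it and it stayed out of the fit. The melanotrope side of the tissue is therefore covered here only by genes that other cells also express.

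Of the receptors, Avpr1b, the vasopressin receptor of corticotropes, had levels that varied much like those of Tbx19. The level of its brighter probe, at chr13:44547210-44547269 (plus strand), was -4.09, -4.46 and -4.28 in the male controls, -5.33, -4.51 and -3.90 in the exposed males, -3.56, -4.39 and -4.47 in the female controls, and -4.76, -4.69 and -4.48 in the exposed females. As with Tbx19, male TCDD 3 was the only exposed array not below every control on this probe. The females did not overlap, as for 5.51% of all genes in the lower direction, although female control 3 (-4.47) and female TCDD 3 (-4.48) almost met. The difference was -0.30 in males, -0.51 in females and -0.40 over both (95% interval -0.94 to 0.14, adjusted p = 0.670 in limma). In males it was 0.076 without male TCDD 1, and 0.29 without the 6 ganglion arrays, from male TCDD 3 alone among the exposed. The dimmer second probe, well above background on 10 arrays, gave -0.65 in males, -0.70 in females and -0.68 over both. It was not well above background on female TCDD 1 and 2, so its female value rests partly on signal near background. On this dimmer probe the females overlapped, with female TCDD 3 at -5.49 and female control 2 at -6.00.

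Crhr1, the receptor through which CRH raises cyclic AMP, was near the limit of detection. It was well above background on 9 arrays and not on male control 2, female control 2 or female TCDD 1, all of which carry ganglion signal. The levels, read at chr10:93353354-93353413 (plus strand), were -5.00, -5.79 and -5.66 in the male controls, -6.05, -5.47 and -5.11 in the exposed males, -4.62, -6.39 and -5.45 in the female controls, and -6.34, -5.22 and -5.46 in the exposed females. All groups overlapped. The difference over both sexes was -0.13 (95% interval -0.86 to 0.61, adjusted p = 0.892), and it was 0.16 with the ganglion mean as a covariate, so its direction is not settled by these arrays. Single arrays turned it too, with 0.090 over both sexes without female control 1, 0.042 without female TCDD 1 and 0.0020 without male TCDD 1.

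Crhbp, whose secreted product binds CRH and keeps it from its receptors, separated the exposure groups in both sexes. Its level was -2.26, -2.22 and -2.29 in the male controls, -3.79, -3.01 and -2.44 in the exposed males, -1.58, -2.04 and -2.32 in the female controls, and -3.10, -3.01 and -2.75 in the exposed females. All 6 exposed arrays lay below all 6 controls. Groups that do not overlap in either sex, with exposed arrays lower in both, were found for 73 genes, 0.377% of those tested. In males alone 6.01% of genes lay lower without overlap, and in females 5.51%.

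The difference of Crhbp was -0.82 in males (standard error 0.30, adjusted p = 0.506), -0.97 in females (standard error 0.30, adjusted p = 1.00) and -0.90 over both sexes (standard error 0.21, 95% interval -1.36 to -0.43). The value over both sexes is 46.2% less signal, or a ratio of 0.538 with an interval from 0.390 to 0.742. Its unadjusted p was 0.0015 and its adjusted p over all genes 0.50 in limma, so it did not pass. The effects in the sexes differed by 0.15, with an interval from -0.77 to 1.08 (adjusted p = 0.948).

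The Crhbp difference was below 0 under each alternative run, but its size in males moved with male TCDD 1 and with the ganglion signal. In males it was -0.46 without male TCDD 1 and -1.53 within slide 1, where that array is the only exposed one, a fit that calls Crhbp (adjusted p = 0.0333) among 276 genes. Leaving out the 6 arrays with ganglion signal gave -0.16 in males, from male TCDD 3 alone, and -0.61 over both sexes, while the ganglion mean as a covariate gave -0.69 in males, -0.89 in females and -0.79 over both. Within slide 3 it was -0.63 in females. Array quality weights called it in males (-0.76, adjusted p = 0.0136) and over both sexes (-0.86, adjusted p = 0.0375), in a fit that gave male TCDD 2 a weight of 9.40 and called 5454 genes in males and 65 over both. Among the controls, the 2 with ganglion signal had Crhbp at -2.22 and -2.04, within the -2.32 to -1.58 of the other 4.

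**Figure D3:**
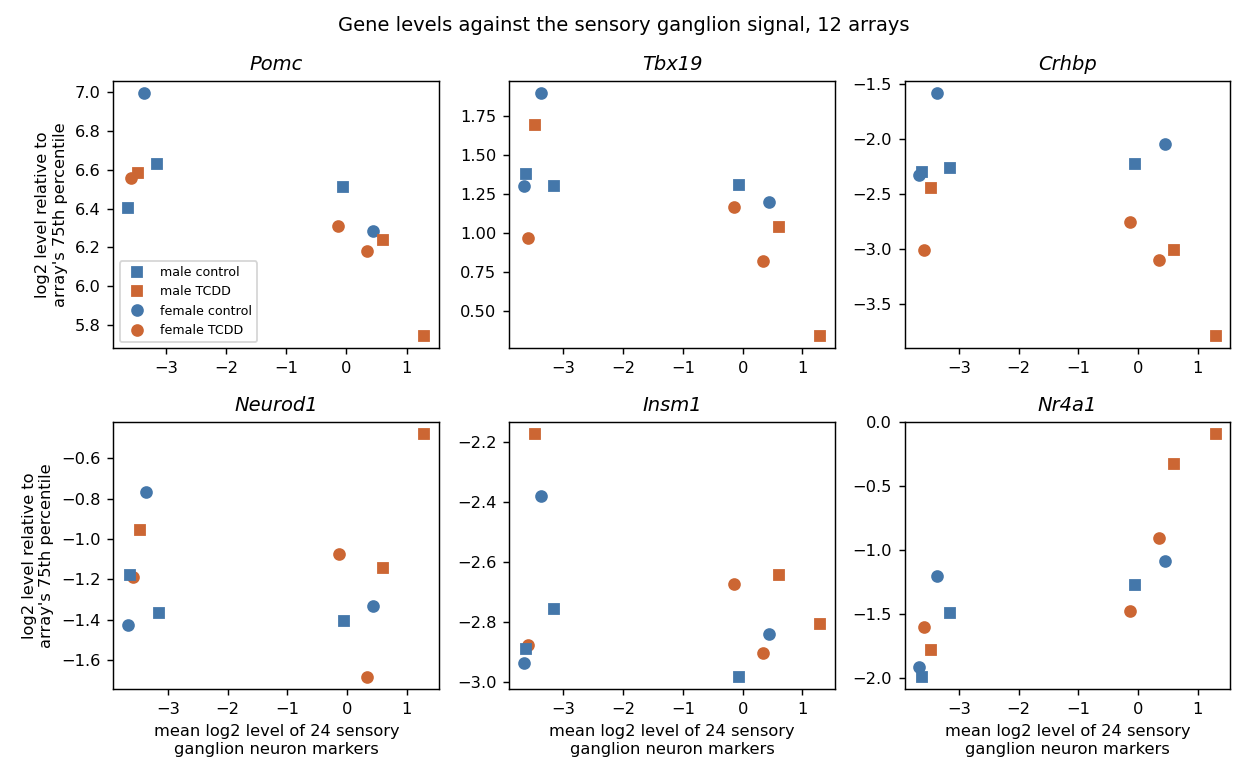
Level of 6 of the genes (vertical axis, log2 scale with the 75th percentile of the array at 0) against the mean level of 24 sensory ganglion neuron markers on the same array (horizontal axis), with colour for exposure and shape for sex. The arrays form a low cluster and a high cluster on the horizontal axis, Nr4a1 reaches its highest levels in the high cluster, and within each cluster the exposed arrays lie below the controls for Crhbp.

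Nr3c1, the glucocorticoid receptor gene through which the end product of the axis represses Pomc, did not separate the groups. Its brighter probe read -2.85, -3.20 and -2.97 in the male controls, -4.00, -3.38 and -2.78 in the exposed males, -2.62, -3.10 and -3.00 in the female controls, and -3.10, -2.98 and -3.37 in the exposed females. The groups overlapped in both sexes, and male TCDD 1 was lowest by a wide margin. The difference was -0.38 in males, -0.25 in females and -0.31 over both (standard error 0.19, adjusted p = 0.670 in limma), and the other probe gave -0.25 over both. In males it was 0.13 without the 6 ganglion arrays, from male TCDD 3 alone among the exposed. On the 6 arrays with ganglion signal Nr3c1 lay between -4.00 and -3.10, and on the other 6 between -3.00 and -2.62, without overlap.

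Nr4a1 encodes the orphan nuclear receptor Nur77, which CRH signalling induces and which activates Pomc, and it is an immediate early gene in many other cells. The mean of its 10 spots, at chr7:140020442-140020501 (plus strand), was -1.49, -1.27 and -1.99 in the male controls, -0.09, -0.33 and -1.78 in the exposed males, -1.20, -1.08 and -1.91 in the female controls, and -0.90, -1.60 and -1.48 in the exposed females. Male TCDD 1 and 2, the arrays with the most ganglion signal, were far above the rest. The difference was 0.85 in males (standard error 0.42, adjusted p = 0.506), 0.070 in females and 0.46 over both (adjusted p = 0.670). Array quality weights gave 1.26 in males (adjusted p = 0.0109), a call shared with 5454 genes. Without the 6 arrays with ganglion signal the differences were -0.039 in males, -0.050 in females and -0.044 over both. Male TCDD 3 and female TCDD 2 were then the only exposed arrays. In females the value was -0.19 without female control 3 and -0.14 without female TCDD 1.

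Many of these genes varied together from array to array. Male TCDD 1 held the lowest value of 5 of the 9 (Pomc, Tbx19, Avpr1b, Crhbp and Nr3c1) and the highest of Nr4a1 and Neurod1, and female control 1 the highest of 6 (those 5 and Crhr1). Over the 12 arrays Tbx19 and Avpr1b had a Pearson correlation of 0.97, Tbx19 and Crhbp 0.90, and Tbx19 and Pomc 0.89 (11 arrays). Neurod1 followed neither (-0.06 with Tbx19), and Nr4a1 ran the other way (-0.63 with Tbx19). The mean of 13 anterior pituitary markers, in the same array order as the levels above, was -0.58, -0.74 and -0.36, then -2.04, -1.18 and -0.60, then -0.38, -0.84 and -0.51, and then -1.37, -1.17 and -1.26. It too was lowest on male TCDD 1 and, among exposed arrays, highest on male TCDD 3, and its part in the differences above was not tested. These correlations describe arrays that share slides and tissue make-up, with groups of different means, and carry no test.

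Set against Tbx19 on the same array, Crhbp was lower in exposed fetuses of both sexes. This ratio was chosen after the values were seen, and it is given as a description with no test. Crhbp minus Tbx19 (log2) was -3.57, -3.53 and -3.68 in the male controls, -4.13, -4.05 and -4.13 in the exposed males, -3.48, -3.24 and -3.63 in the female controls, and -3.92, -3.98 and -3.92 in the exposed females. The exposed arrays all lay below the 6 controls, including male TCDD 1 and male TCDD 3, which were the lowest and the highest exposed arrays for Tbx19 itself. The mean difference was -0.51 in males and -0.49 in females, and 0.0774% of genes (15 of 19380) lay lower relative to Tbx19 without overlap in both sexes. Crhbp did so also relative to Pitx1 (-0.42 in males and -0.56 in females, beside 0.0722% of genes) and relative to Pomc (-0.49 and -0.85, beside 0.134%). The female value relative to Pomc rests on 2 controls, because Pomc has no value for female control 3. Tbx19, Pitx1 and Pomc were themselves lower in exposed fetuses over both sexes (-0.39, -0.40 and -0.31), which shifts every gene set against them upward. Without such scaling 0.377% of genes lay lower and 0.304% higher in both sexes, so the small shares partly reflect the reference genes. Pitx1 followed Tbx19 closely (r = 0.98), so its ratio is no independent repeat. Insm1 was higher relative to Tbx19, by 0.64 in males and 0.38 in females, with all exposed arrays above the controls of their sex, as for 0.748% of genes. Relative to Pitx1 it was higher by 0.73 and 0.31 (beside 1.53%), while relative to Pomc, where 1.25% of genes lay higher without overlap in both sexes, its females overlapped. Unscaled, Insm1 differed by 0.34 in males and -0.10 in females and overlapped in both, while Tbx19 differed by -0.31 and -0.48. The female value relative to Tbx19 therefore comes from lower Tbx19 and not from higher Insm1.

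**Figure D4:**
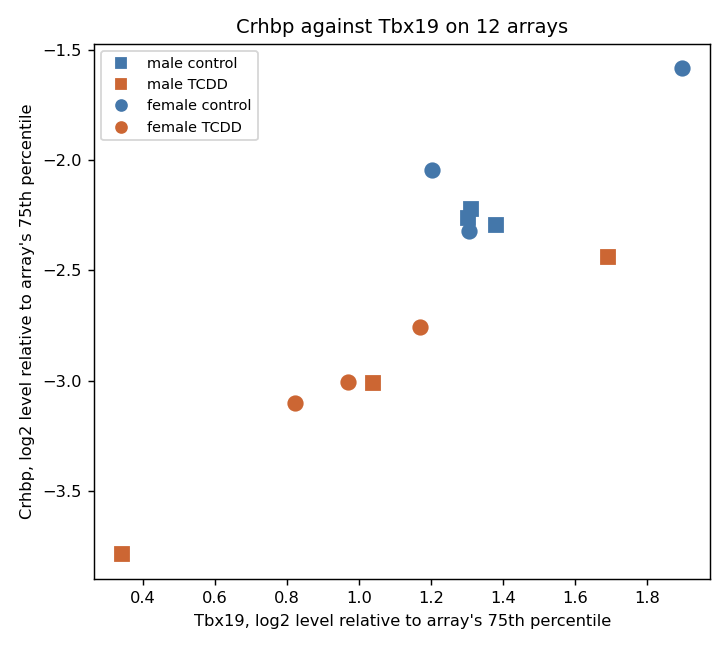
Level of Crhbp against that of Tbx19 on each of the 12 arrays (both axes log2, with the 75th percentile of the array at 0), with colour for exposure and shape for sex. The exposed arrays lie on a lower line than the controls, so that male TCDD 3, with Tbx19 at 1.69, still has less Crhbp (-2.44) than every control.

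The genes whose levels were most like that of Pomc, among 13401 with a symbol over 11 arrays and with members left out, were Gpbp1l1 (r = 0.97), Ctc1, Nudt7, Tekt2, Nat14 and Bst2 (r = 0.96 for these 5). Among the genes most like Tbx19 over 12 arrays were Stox1 (r = 0.99), Pitx1, which encodes the homeodomain partner of the Tbx19 protein on the Pomc promoter, and Prss22 (both r = 0.98), the exocytosis gene Rph3al (r = 0.98) and the huntingtin-associated gene Hap1 (r = 0.97). Over both sexes these 5 differed by -0.46 (Rph3al) to -0.30 (Prss22), with -0.40 for Pitx1, beside the -0.39 of Tbx19, and all had an adjusted p of 0.67 in limma.

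Between male and female controls no difference passed for these genes. Slide 1 held all the male controls and slides 2 and 3 the female controls. Sex and slide therefore cannot be told apart in this comparison. The limma fit called 0 of the 9 (0.0103% of all genes), and 0 had an unadjusted p below 0.05 (5.51% of all genes). Differences, male minus female, ran from -0.28 for Crhbp to 0.00 for Crhr1, each with an adjusted p of 1.00. For 8 of the 9 the males had the lower mean, as they did for 11258 of all 19381 genes. The groups overlapped for each of the 9, whereas 10.6% of all genes did not overlap (1.94% higher and 8.64% lower in males). Pomc differed by -0.12, with an interval from -0.71 to 0.46. In a fit of the 6 control arrays with the replicate number as a block, chosen after the data were seen, Pomc differed by -0.068, the adjusted p-values of the 9 ran from 0.699 to 0.998, and 0 of all genes were called in place of 2. The effect of exposure was likewise not shown to differ by sex for any of the 9: differences of effect, male minus female, ran from -0.13 (Nr3c1) to 0.78 (Nr4a1), with 0 called (0% of all genes), 0 at an unadjusted p below 0.05 (4.47% of all genes) and adjusted p-values from 0.883 to 0.985.

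The pathway around these genes was read from 7 lists, and limma called 0 genes of any of them over both sexes. It called 0.0206% of all genes there. The counts at an unadjusted p below 0.05 that follow stand beside 6.46% of all genes over both sexes. The enzymes and granule proteins that process and store POMC were all measured, 12 of 12, with a median difference of -0.03, 5 above 0 and 7 below. The prohormone convertases Pcsk1, which makes ACTH, and Pcsk2, which cuts further in melanotropes, differed by 0.32 and 0.08, the convertase inhibitor gene Pcsk1n by 0.13 and the Pcsk2 chaperone gene Scg5 by -0.03. At an unadjusted p below 0.05 there were 4 of the 12 over both sexes, against 6.46% of all genes. In males 8 of the 12 lay above 0 (median 0.22) and in females 10 lay below (median -0.24). The median difference of effect between the sexes was 0.49. For that difference limma called 0 of the 12 (0% of all genes), and 1 had an unadjusted p below 0.05 (4.47% of all genes). Of all 19381 genes 9416 lay above 0 in males and 11483 below 0 in females.

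Upstream, 7 of 10 genes of CRH and vasopressin ligands and other receptors were measured, with a median of 0.02 and 0 at an unadjusted p below 0.05. Crh, Crhr2 and Oxtr did not pass the detection filter, and CRH itself is made in the hypothalamus. The urocortin genes Ucn, Ucn2 and Ucn3, whose peptides are kin to CRH, differed by -0.65, -0.28 and 0.13. Ucn was well above background on only 4 arrays, so its value rests mostly on signal near background. Avp differed by 0.87, with male TCDD 1 far above the other arrays. Of the CRH receptor signalling list 14 of 15 were measured, with a median of -0.04 and 1 at an unadjusted p below 0.05. There the G-protein gene Gnas differed by -0.06 and the adenylyl cyclase genes Adcy3, Adcy5 and Adcy6 by 0.26, 0.04 and -0.23.

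Of the partners of Tbx19 in transcription and lineage 15 of 16 were measured, with a median of -0.13 and 0 at an unadjusted p below 0.05. Below 0 lay 11 of the 15, beside 10810 of all 19381 genes. Pitx1 differed by -0.40 and Nr4a2, a relative of Nr4a1, by 0.17. The glucocorticoid receptor list had 14 of 15 measured, a median of -0.03 and 3 at an unadjusted p below 0.05 (6.46% of all genes). The mineralocorticoid receptor gene Nr3c2 differed by -0.27 and the chaperone genes Fkbp4 and Hsp90aa1 by 0.02 and 0.10. Fkbp5, a gene that glucocorticoids induce, differed by -0.12.

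Of the melanotrope list 8 of 10 were measured, with a median of 0.10 and 1 at an unadjusted p below 0.05. The dopamine receptor gene Drd2, through which dopamine restrains melanotropes, differed by 0.14, Oacyl by -0.62 and the GABA receptor subunit gene Gabrb1 by -0.35. Melanocortin receptors and antagonists had 5 of 9 measured, a median of 0.13 and 0 at an unadjusted p below 0.05. Mc2r, Mc3r and Mc5r were not well above background on any array, and Mc4r, Mrap, Mrap2 and Agrp differed by 0.33, 0.95, 0.13 and -0.15. The anterior pituitary markers, by contrast, had 12 of 13 below 0 and a median of -0.58, beside 10810 of all 19381 genes below 0. Of the 13, 9 had an unadjusted p below 0.05, against 6.46% of all genes, and 0 were called. The -0.31 of Pomc and the -0.39 of Tbx19 were thus nearer to 0 than the middle of that list.

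**Figure D5:**
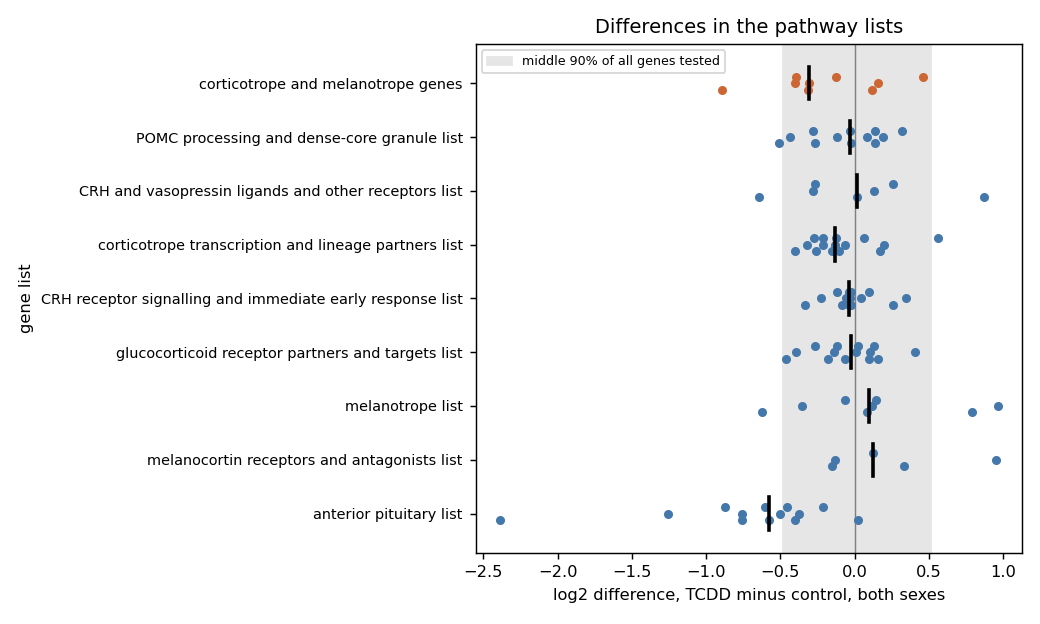
Differences over both sexes (log2, TCDD minus control) for the 9 corticotrope and melanotrope genes and for each measured gene of 7 pathway lists and of the anterior pituitary markers, with the median of each as a vertical bar and the middle 90% of all genes shaded (-0.48 to 0.51). Crhbp is the only one of the 9 outside the shaded range, and the anterior pituitary median lies below it.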

How the data were processed

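Total RNA of each sample was labelled with Cy3 and hybridised to an oligonucleotide array, per the labels' protocols. The deposited scanner files hold linear spot intensity, per the file headers written by version 10.7.1.1 of Agilent Feature Extraction (9.5.1.1 in the submitters' processing notes). The authors' deposited value table, intensity with a median of 83.5 in every column, was an alternative; its normalization is not stated.

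Spots flagged as outliers were left out, log2 was taken and each array's 75th percentile subtracted. Probes well above background on at least 3 of 12 arrays with at least 10 values were kept (22430 of 30367), and the brightest of these stood for its gene. Names came from the RefSeq table by accession (18006 probes) or symbol (2654), or from the files (9707). limma 3.58.1 (R 4.3.3) fitted group means to all 12 arrays with a variance trend. Its p-values were adjusted over 19381 genes by Benjamini-Hochberg, and an adjusted p below 0.05 made a call. The script was tested on simulated data. The number of arrays limits the precision.

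Members and lists were chosen with earlier results of these data known. Named were all members, the first 4 measured genes of each list, the first 3 of each marker list, the 6 genes most like Pomc and Tbx19, and Ahrr and Cyp1a1; some genes so selected are not reported here. Only between male and female controls did all 3 same-numbered pairs deviate together (correlations 0.13 to 0.75), and a blocked fit was added there. The pair at 0.75 joins male control 2 and female control 2, the only controls with ganglion signal. Single pairs of other groups also went together, such as male TCDD 1 and female TCDD 1 at 0.65. The labels do not state a pairing. Alternatives covered background correction, scaling, filters, outlier flags, probe choice, the deposited table, slide and number blocks, array weights, the ganglion signal and each array left out.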

Additional observations from a re-analysis of the deposited data

How the results depend on the processing

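The counts of members called over the 5 comparisons stayed at 0 in 138 of 141 alternatives. The exceptions were males within slide 1 (Crhbp and Tbx19), where male TCDD 1 is the only exposed array, and array quality weights. The weighted fit called 2 in males (Crhbp and Nr4a1) and 1 over both sexes (Crhbp). In males it called a large share of all genes, with the counts given above for Crhbp, so its calls do not set these members apart. Over both sexes Pomc ran from -0.49 to -0.13 over all alternatives and was never called. For exposure the replicate numbers did not pair the samples: of 18 same-numbered pairs over all groups, 8 had deviations correlated over 0.1, with a range from -0.70 to 0.75. Male and female controls did go together by number (3 of 3 pairs, 0.13 to 0.75). With the replicate block of the number, the difference of Pomc over both sexes was -0.33 (adjusted p = 0.708 in limma), and 0 members were called in each comparison, nor in the controls alone with this block. With slide as a fixed block Pomc could not be fitted, because its spot is missing on the only female control of slide 3.

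Of 758 alternative values of single genes under exposure, 720 kept direction and side of the threshold, 5 became called and 33 changed sign. Without the 6 arrays with ganglion signal the sign changed for Nr4a1 (-0.039 in males, -0.050 in females, -0.044 over both), Nr3c1 (0.13 in males), Crhr1 (0.22 in males, 0.017 over both), Tbx19 (0.35 in males), Avpr1b (0.29 in males) and Pomc (0.069 in males). Those values rest on male TCDD 3 and female TCDD 2 as the only exposed arrays. With the ganglion mean as a covariate it changed for Nr4a1 (-0.15 in females) and Crhr1 (0.30 in males, 0.032 in females, 0.16 over both). In females Neurod1 was 0.11 and Insm1 0.12 with slide as a fixed block and within slide 3, and Crhr1 in males was 0.043 with array quality weights. Leaving out 1 array at a time gave -0.19 to 0.23 for Nr4a1, -0.27 to 0.062 for Neurod1, -0.21 to 0.071 for Insm1, -0.64 to 0.24 for Crhr1 and -0.65 to 0.067 for Pomc in females. It gave -0.28 to 0.19 for Crhr1, -0.64 to 0.035 for Tbx19 and -0.64 to 0.076 for Avpr1b in males, and -0.35 to 0.090 for Crhr1 over both sexes. The causes were not tested. In the sex comparisons 57 of 500 values changed sign and none was called.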
